A study of Mus musculus with 10 samples.

Results

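The genes described here mark the 2 ends of the liver lobule, and their levels were compared between livers of mice with added LKB1 and livers of untreated mice. Members were all probes whose annotated gene symbol was Glul, Oat, Slc1a2, Rhbg or Lect2, which mark hepatocytes around the central vein, or Hal, Sds, Gls2 or Hsd17b13, which mark hepatocytes around the portal tract. Of these 9 genes, 6 had a named probe, with 11 probes among the 45281 of the array. The annotation used here named no probe for Sds, Gls2 or Hsd17b13, which were therefore not analysed here, so the periportal end was read from Hal alone. The Lect2 probe was detected on no array, which left 5 measured genes and 9 measured probes.

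The RNA was total RNA from the liver of FVB mice, labelled by the submitters as liver hepatocytes, with 1 bead array per mouse. Both groups were FVB, with no allele named. The 4 mice of the control group were untreated, and the 6 mice of the LKB1 group overexpressed wild-type LKB1 from a plasmid injected into the tail vein with 1 injection per week for 8 weeks. Effects of the plasmid, of the injections and of LKB1 itself cannot be told apart, as the untreated mice had none of them. The sources used here do not give the promoter of the plasmid, the age of the mice, or the time of day and feeding state at sampling. LKB1, encoded by Stk11, is a serine/threonine kinase that activates AMPK and related kinases.

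Blood enters the lobule at the portal tract and leaves at the central vein, and hepatocytes along this path express different enzymes. Periportal hepatocytes break down amino acids and feed the released ammonia into the urea cycle, while a thin pericentral layer captures the ammonia that escapes and fixes it in glutamine. Wnt signals from endothelial cells of the central vein maintain the pericentral programme through beta-catenin and TCF/LEF factors.

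Between 15374 and 16839 probes were detected per array, and 16803 probes for 9725 genes were kept for testing. A clustering of the probes detected on no array divided the 10 arrays in set A, with untreated replicates 1 and 2 and LKB1 replicates 1, 2 and 4, and in set B, with untreated replicates 3 and 4 and LKB1 replicates 5, 6 and 7. These sets were found from the data, and the labels name no batch. The number of sets was fixed at 2 beforehand, so the division does not show that 2 sets exist. Hepatocyte markers had a summed linear level over 6 measured genes of 62819 to 64981 in untreated and 61972 to 69309 in LKB1 livers. Not every marker was bright. The Alb probe was at a normalised log2 level of 8.43 ± 0.68 (SD, n = 4) and 8.47 ± 0.61 (SD, n = 6). Of the markers of other cells, all 8 measured genes of the Kupffer cell and macrophage list lay above 0 in log2 fold change, where 50.8% of all genes lay below 0. Their summed levels were 2204 to 3897 in untreated and 3184 to 4465 in LKB1 livers. Measured genes above 0 were 5 of 9 for liver endothelial, 4 of 6 for stellate and 1 of 2 for bile duct cells. They were 1 of 2 for T, B and NK cells, 1 of 2 for neutrophils and 0 of 2 for red cells. The part of these cells in the results below was not tested. Over whole liver RNA, fewer cells of a type and less RNA per cell cannot be told apart.

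The stretch of 250 bases before the annotated transcript start is shown for Oat and Slc1a2, pericentral members, and for Hal, the periportal one, because these 3 genes had a probe with a detection p of 0 in every liver. The sequences are from RefSeq on GRCm38.p6, the C57BL/6J reference, written 5' to 3' on the strand of the gene, and capitals mark matches to the TCF/LEF core CTTTGA on either strand. RefSeq promoters were at hand for 6 of the 9 members. The Slc1a2 stretch lies inside the annotated gene and precedes an internal transcript start, while those of Oat and Hal lie directly before the gene.
Oat, chr7:132576399-132576648, minus strand: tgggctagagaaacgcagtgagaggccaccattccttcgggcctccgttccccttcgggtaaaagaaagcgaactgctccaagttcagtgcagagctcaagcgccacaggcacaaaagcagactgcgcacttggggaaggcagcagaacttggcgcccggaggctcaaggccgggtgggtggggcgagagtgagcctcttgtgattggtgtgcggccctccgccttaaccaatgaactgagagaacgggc
Slc1a2, chr2:102706188-102706437, plus strand: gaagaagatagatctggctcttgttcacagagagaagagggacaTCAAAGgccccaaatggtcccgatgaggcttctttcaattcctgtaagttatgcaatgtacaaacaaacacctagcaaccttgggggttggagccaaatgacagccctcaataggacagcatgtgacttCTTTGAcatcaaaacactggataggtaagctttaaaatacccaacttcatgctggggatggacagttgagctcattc
Hal, chr10:93488518-93488767, plus strand: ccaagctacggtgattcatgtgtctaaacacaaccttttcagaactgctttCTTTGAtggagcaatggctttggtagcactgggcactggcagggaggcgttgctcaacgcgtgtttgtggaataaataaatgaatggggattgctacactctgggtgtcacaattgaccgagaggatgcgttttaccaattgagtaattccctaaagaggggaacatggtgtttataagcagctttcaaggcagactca
The core occurred in the Slc1a2 stretch 206 and 77 bases before the start and in the Hal stretch 199 bases before it, while the Oat stretch held none. Of 32536 promoter stretches of the same length, 13.9% held at least 1 match. The HNF4 element CAAAGTCCA, which occurred in 0.387% of all stretches, was in none of the 3. A match is a run of letters and says nothing about binding.

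No zonation gene differed between the groups beyond the spread between mice. With limma and p-values adjusted over the kept probes by Benjamini-Hochberg, 0 of the 5 measured genes passed an adjusted p of 0.05, at a background of 0% (0 of 9725 genes). At an unadjusted p under 0.05 the count was 0 of 5 genes, where the background was 6.3%. On each of the 9 measured probes the means of the groups differed by less than the larger group SD, and the groups overlapped. Non-overlapping groups occurred in 1.32% of all genes. The median log2 fold change (LKB1 minus untreated) of the 5 genes was -0.12, against a median over all genes of -0.0025, with the 5th and 95th percentiles of all genes at -0.22 and 0.23. The 4 pericentral genes had values below 0 and Hal had a value above 0 on its brightest probe, where 50.8% of all genes lay below 0.

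**Figure D1:**
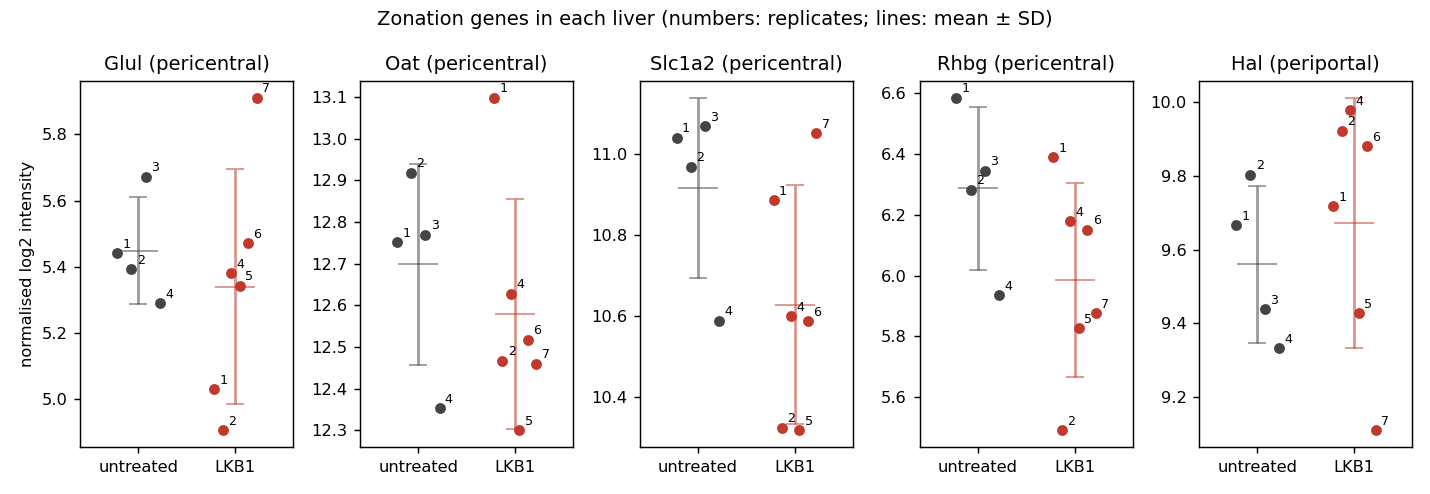
Normalised log2 intensity (y axis, a separate range for each gene) of the brightest probe of the 5 measured zonation genes in 4 untreated (grey) and 6 LKB1 (red) livers. Points are mice with their replicate numbers, and lines give the mean ± SD; the groups overlap in every panel.

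Glul encodes glutamine synthetase, which joins ammonia to glutamate in the pericentral layer. Its only probe lay close to background, with a deposited intensity from 30.8 to 71.8, although it was detected on all 10 arrays at a detection p of at most 0.0353. The stretch of the transcript that this probe covers was not known here. On the normalised log2 scale its level was 5.44, 5.39, 5.67 and 5.29 in untreated replicates 1 to 4, and from 4.91 to 5.91 with a median of 5.36 in the LKB1 livers. The lowest and the highest values of all 10 livers were both in the LKB1 group, in replicates 2 and 7. The mean was 5.45 ± 0.16 (SD, n = 4) in untreated and 5.34 ± 0.35 (SD, n = 6) in LKB1 livers. This is a ratio of 0.927 (LKB1 over untreated, 95% confidence interval 0.722 to 1.19; limma adjusted p = 0.939). Within array set A the difference was -0.31 and within set B it was 0.09, so the sign was not the same in both sets. With 1 liver left out, the log2 fold change of -0.11 ran from -0.22 (without LKB1 replicate 7) to -0.02 (without LKB1 replicate 2).

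Oat encodes ornithine aminotransferase, which turns ornithine into a precursor of glutamate and so supplies the substrate of glutamine synthetase. Its level was 12.75, 12.92, 12.77 and 12.35 in untreated replicates 1 to 4, and from 12.30 to 13.10 with a median of 12.49 in the LKB1 livers. LKB1 replicate 1 was the highest of all livers and LKB1 replicate 5 the lowest, with untreated replicate 4 next to it. The means were 12.70 ± 0.24 (SD, n = 4) and 12.58 ± 0.28 (SD, n = 6). The fold change was 0.92, with an interval from 0.734 to 1.15 (limma adjusted p = 0.921). Within array set A the difference was -0.10, and within set B it was -0.14. Leaving out 1 liver took the log2 fold change of -0.12 to between -0.23 (without untreated replicate 4) and -0.05 (without untreated replicate 2).

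Slc1a2 encodes the glutamate transporter GLT-1, which takes up the glutamate that pericentral hepatocytes convert to glutamine. It had 5 probes, annotated to several transcript records, and they fell into different ranges of signal. The brightest (ILMN_3076439) gave 11.04, 10.97, 11.07 and 10.59 in untreated replicates 1 to 4, and from 10.32 to 11.05 with a median of 10.59 in the LKB1 livers. Of the untreated livers, replicates 1, 2 and 3 lay close together near the top of the range, with untreated replicate 4 among the lower LKB1 livers, and LKB1 replicate 7 lay as high as the upper untreated ones. The means were 10.92 ± 0.22 (SD, n = 4) and 10.63 ± 0.30 (SD, n = 6), a fold change of 0.818 with an interval from 0.649 to 1.03 (limma adjusted p = 0.792). It was the member with the smallest unadjusted p, at 0.0839 (limma). Within array set A the difference was -0.40, and within set B it was -0.18. The log2 fold change was -0.40 without untreated replicate 4 and -0.23 without LKB1 replicate 5.

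The second Slc1a2 probe by brightness (ILMN_3123195) was detected on all arrays too, at 10.15 ± 0.22 (SD, n = 4) and 9.99 ± 0.19 (SD, n = 6), with a log2 fold change of -0.17 ± 0.12 (SE). It differed by -0.34 within array set A and by 0.0047 within set B. Over the 10 livers it followed the brightest probe with r = 0.864. The dimmer ILMN_2642339 had a log2 fold change of -0.21 ± 0.20 (SE) and was above background in all 4 untreated livers and in 5 of the 6 LKB1 livers. ILMN_3047516 had a log2 fold change of 0.05 ± 0.11 (SE) and was above background in 2 untreated and 3 LKB1 livers. ILMN_2551824 was detected on no array, at a detection p of 0.720 to 0.980. No Slc1a2 probe passed the test, and the 3 probes with the higher signals had values below 0.

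Rhbg encodes an ammonium transporter of the hepatocyte membrane. Its level was 6.59, 6.28, 6.35 and 5.94 in untreated replicates 1 to 4, and from 5.49 to 6.39 with a median of 6.01 in the LKB1 livers. The highest liver was untreated replicate 1 and the lowest LKB1 replicate 2, with overlap between the groups in the middle. The means were 6.29 ± 0.27 (SD, n = 4) and 5.99 ± 0.32 (SD, n = 6). The fold change was 0.811, with an interval from 0.63 to 1.05 (limma adjusted p = 0.800). Within array set A the difference was -0.41, and within set B it was -0.19. The log2 fold change moved from -0.30 to -0.20 without untreated replicate 1 and to -0.20 without LKB1 replicate 2. Without untreated replicate 4 it was -0.42.

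Lect2 encodes a secreted protein of hepatocytes whose gene responds to beta-catenin. Its probe had deposited intensities of 16.9 to 31.1 and a detection p between 0.078 and 0.687, so the array gave no level above background for it in any liver. The difference between groups was not detectable with this probe.

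Hal encodes histidine ammonia-lyase, the first enzyme of histidine breakdown, and was the only periportal member measured. On its brightest probe (ILMN_1241298) the level was 9.67, 9.80, 9.44 and 9.33 in untreated replicates 1 to 4, and from 9.11 to 9.98 with a median of 9.80 in the LKB1 livers. LKB1 replicates 2, 4 and 6 were the highest of all livers, and LKB1 replicate 7 was the lowest. The means were 9.56 ± 0.21 (SD, n = 4) and 9.67 ± 0.34 (SD, n = 6), a fold change of 1.08 with an interval from 0.84 to 1.39 (limma adjusted p = 0.939). Within array set A the difference was 0.14, and within set B it was 0.09. The log2 fold change of 0.11 ran from 0.04 (without untreated replicate 4) to 0.22 (without LKB1 replicate 7) when 1 liver was left out. The log2 fold change of Hal was -0.10 with array medians made equal, a scaling under which the median log2 fold change of all genes was -0.157. With the mean of both probes Hal was at -0.06.

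The other Hal probe (ILMN_2984332), detected on all arrays as well, gave 7.78, 8.14, 7.92 and 7.94 in untreated replicates 1 to 4 and from 7.32 to 8.18 with a median of 7.78 in the LKB1 livers. Its log2 fold change was -0.24 ± 0.16 (SE; limma adjusted p = 0.838), opposite in sign to that of the brightest probe. This probe differed by -0.04 within array set A and by -0.44 within set B, so its difference came mainly from set B. LKB1 replicates 5 and 7 were the lowest livers on this probe. The difference between the probes (brightest minus other, log2) was 1.61 ± 0.21 (SD, n = 4) in untreated and 1.96 ± 0.14 (SD, n = 6) in LKB1 livers. It ran from 1.40 to 1.88 and from 1.79 to 2.09, so that untreated replicate 1 lay among the LKB1 livers and untreated replicates 2, 3 and 4 below all of them. In an exact two-sided permutation test over all mice this shift of 0.35 had p = 0.0286, or 0.0571 when adjusted over the 2 probe pairs compared, and so did not pass. The same comparison of the brightest Slc1a2 probes gave a shift of -0.12 (exact p = 0.238, adjusted p = 0.238). These probe pairs were compared after their values were seen.

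**Figure D2:**
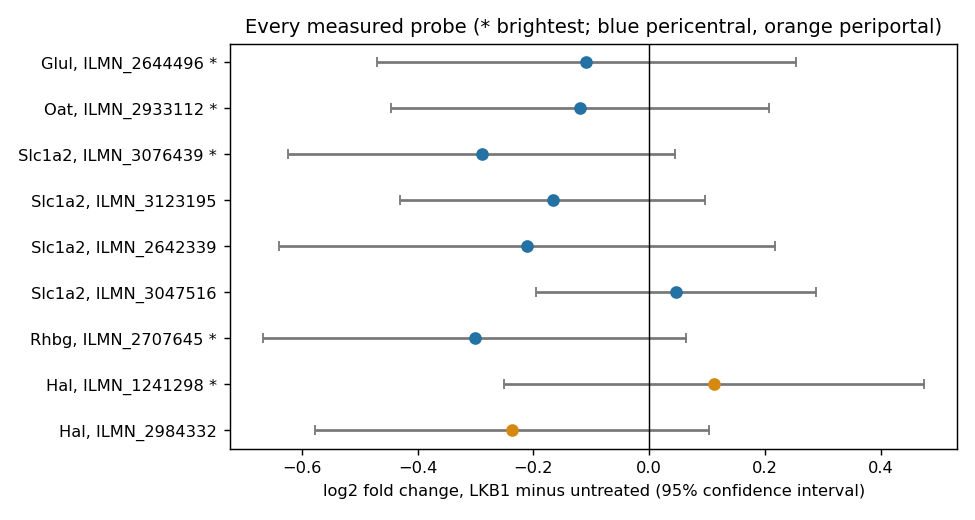
Log2 fold change (x axis, LKB1 minus untreated) of each of the 9 measured probes of the zonation genes, with bars for the 95% confidence interval of the limma fit. Every interval includes 0, and the probes of Hal lie on opposite sides of it at 0.11 and -0.24.

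Single livers differed more in these genes than in most of the array. The pooled within-group SD was between 0.264 (Oat) and 0.301 (Rhbg), which placed the 5 members between the 85.2 and 90.8 percentiles of all genes tested, where the median SD was 0.166. The ratio between the highest and the lowest liver was 2.01 for Glul, 1.74 for Oat, 1.68 for Slc1a2, 2.14 for Rhbg and 1.82 for Hal. Glul and Rhbg were dim (deposited intensity 30.8 to 71.8 and 41.1 to 116), and their spread depended on the background step and the offset. The SE of the Glul log2 fold change was 0.167, but 0.116 without background correction and 0.0966 with an offset of 50. For Rhbg it was 0.168, 0.129 and 0.112. The percentiles are over genes of all intensities and were not computed in those settings. Set against the mean of the untreated mice, all 4 measured pericentral genes were lower in untreated replicate 4 and in LKB1 replicates 2, 4 and 5. In untreated replicate 3 none was lower. LKB1 replicate 2 lay farthest down, with a mean deviation of -0.54 over the 4 genes, and it had a deviation of 0.36 for Hal. The array of this liver also had the fewest detected probes, 15374. Its deviations were -0.54 for Glul and -0.80 for Rhbg, the dim genes, -0.59 for Slc1a2 and -0.23 for Oat. LKB1 replicate 7 was split, with Glul at 0.46 and Slc1a2 at 0.13 above the untreated mean, and Oat at -0.24, Rhbg at -0.41 and Hal at -0.45.

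Whether members vary together from mouse to mouse was asked over the 10 arrays for the 10 pairs of measured genes, 6 of them pericentral pairs. Oat and Rhbg had r = 0.735 (permutation p = 0.0155, adjusted p = 0.104) and rho = 0.830 (permutation p = 0.00475, adjusted p = 0.0475), so that the rank correlation passed the adjustment and the linear one did not. The adjustment was over the 10 pairs, separately for r and for rho, and did not cover the use of both measures. Without the 2 arrays farthest from the median of Oat, r was 0.777. Slc1a2 and Rhbg had r = 0.715 (permutation p = 0.0207, adjusted p = 0.104) and rho = 0.636 (permutation p = 0.0536, adjusted p = 0.179). Without LKB1 replicates 2 and 5, the farthest from the median of Slc1a2, r was 0.398. Without the same livers it was 0.763 with array medians made equal and 0.402 with deviations from the array set means. Leaving out the farthest livers also narrows the range, so a lower r does not show that a relation rests on them. For Oat and Slc1a2, r was 0.631 and rho 0.552 (permutation p = 0.0527 and 0.105, adjusted p = 0.158 and 0.263).

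Glul went with Slc1a2 at r = 0.583 and rho = 0.661 (permutation p = 0.079 and 0.044, adjusted p = 0.158 and 0.179). Without LKB1 replicates 2 and 7, the farthest from the median of Glul, r was 0.239. Without the same livers it was -0.030 with deviations from the group means and 0.604 with deviations from the array set means. Glul and Oat were at r = -0.149 (permutation p = 0.682, adjusted p = 0.719). Between the ends of the lobule, Glul and Hal had r = -0.593 and rho = -0.321 (permutation p = 0.0712 and 0.368, adjusted p = 0.158 and 0.556). Without LKB1 replicates 2 and 7 their r was -0.082. The other pairs with Hal had r between -0.313 and 0.347. With deviations from the group means, permuted within groups, Oat and Rhbg had r = 0.727 (permutation p = 0.0306, adjusted p = 0.253) and rho with an adjusted p of 0.205, so the rank call was lost. With deviations from the array set means, permuted within sets, r was 0.761 for Glul and Slc1a2 (permutation p = 0.0208), 0.751 for Oat and Rhbg (permutation p = 0.023), 0.738 for Oat and Slc1a2 and 0.722 for Slc1a2 and Rhbg, each with an adjusted p of 0.0576. The rank correlation of Oat and Rhbg had an adjusted p of 0.159 on these deviations, so its call was lost there too. A set holds 5 arrays, too few for a correlation of its own.

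**Figure D3:**
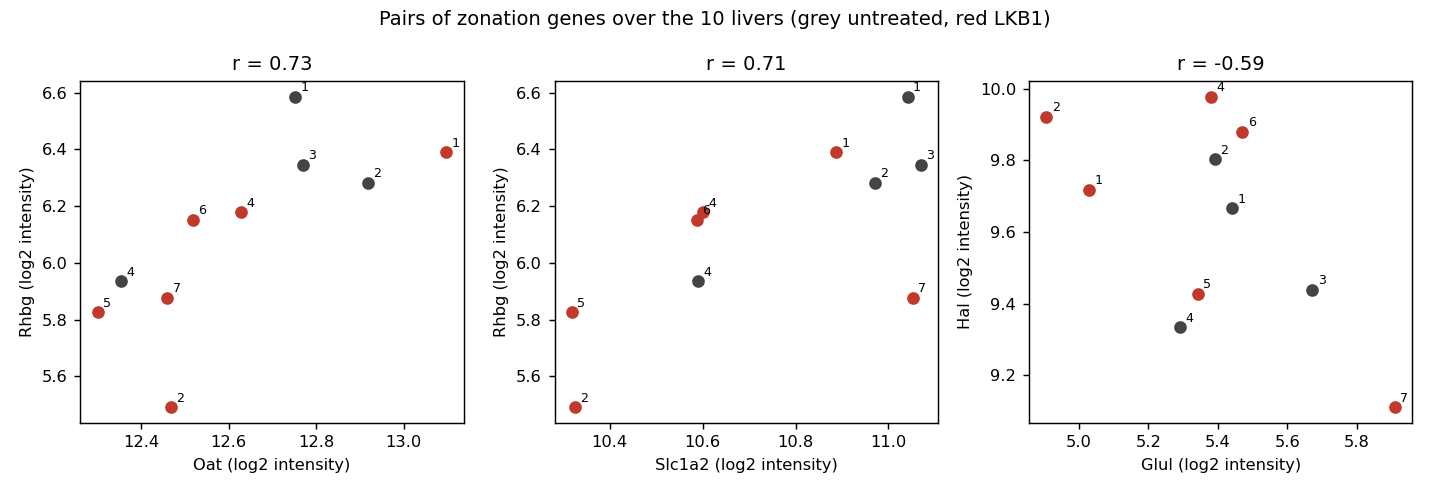
Normalised log2 intensity of pairs of zonation genes (both axes) in the 10 livers, grey for untreated and red for LKB1, with replicate numbers. Oat and Rhbg go together at r = 0.73, Slc1a2 and Rhbg at r = 0.71, while Glul and Hal are at r = -0.59. LKB1 replicates 2 and 7 are the livers farthest from the median of Glul.

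The genes most like each member over the 10 arrays, by Pearson's r among 9466 other genes, were not zonation members. For Glul they were Rcan3 (r = 0.980), Cavin3 (r = 0.955) and Olfml3 (r = 0.949). Oat was most like Ppat, an enzyme of purine synthesis (r = 0.959), Il18, a cytokine (r = 0.894), and Hpgd, which degrades prostaglandins (r = 0.889). Among all genes Rhbg ranked 107 for likeness to Oat, and Slc1a2 ranked 353. For Slc1a2 they were Acot7, an acyl-CoA thioesterase (r = 0.951), Chchd6, a protein of mitochondrial cristae (r = 0.919), and Ech1, an enzyme of fatty acid oxidation (r = 0.901). For Rhbg they were Tmod3, which caps actin filaments (r = 0.971), Rtn4, a protein that shapes the endoplasmic reticulum (r = 0.890), and Sox17, an endothelial transcription factor (r = 0.880). For likeness to Rhbg, Oat ranked 63 and Slc1a2 ranked 88, while Glul ranked 2500 and Hal ranked 3522. Hal was most like Tmed10, a cargo receptor of the secretory pathway (r = 0.924), Prkaca, a catalytic subunit of protein kinase A (r = 0.912), and Ctnnd1, the junction protein p120 catenin (r = 0.894). These are the highest values among many genes and are given as a description.

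Other genes of the same zones showed no called difference, where 0 of all 9725 genes were called. Of 28 further pericentral genes, 23 were measured, 10 with values above 0 and 13 below, with 0 called and a median log2 fold change of -0.03. At an unadjusted p under 0.05 there were 2, Cyp2a5 and Aldh3a2, both with values below 0, beside 6.3% of all genes under that p and 50.8% below 0. Aldh3a2, an aldehyde dehydrogenase of fatty aldehydes, was at -0.29 and is named because of this count, after its value was seen. Cyp2a5, a cytochrome P450 that oxidises coumarin and has a close relative in Cyp2a4, was at 12.21 ± 0.64 (SD, n = 4) and 11.41 ± 0.56 (SD, n = 6), a log2 fold change of -0.80 ± 0.31 (SE; limma adjusted p = 0.678). Its untreated livers ran from 11.46 to 13.01 and its LKB1 livers from 10.69 to 12.28, with overlap. Of the genes above 0, Avpr1a, a vasopressin receptor, had the smallest p, with a log2 fold change of 0.24 ± 0.11 (SE; unadjusted p = 0.0536 and adjusted p = 0.748, limma). Cyp2e1, which oxidises ethanol, and Mgst1, a membrane glutathione transferase, had the highest signal in the list and had log2 fold changes of 0.02 ± 0.09 and 0.02 ± 0.10 (SE).

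Of 24 further periportal genes, 23 were measured, 9 with values above 0 and 14 below, with 0 called and a median of -0.03. At an unadjusted p under 0.05 there were 3, G6pc above 0 and Pck1 and Aldh1b1 below, beside the same shares over all genes. Aldh1b1, a mitochondrial aldehyde dehydrogenase, was at -0.31 and is likewise named after its value was seen. G6pc, which encodes the enzyme that frees glucose from its phosphate, ran from 12.31 to 12.81 in untreated and from 12.67 to 13.60 in LKB1 livers. Pck1, the cytosolic PEP carboxykinase, ran from 7.73 to 8.54 and from 7.10 to 8.02. Both pairs of ranges overlapped, and the limma adjusted p was 0.517 for G6pc and 0.647 for Pck1. Cyp2f2, a cytochrome P450, and Ass1, a urea cycle enzyme, had the highest signal in the list and had log2 fold changes of -0.05 ± 0.08 and 0.03 ± 0.10 (SE). All 4 mid-lobular genes were measured with 0 called, where 0 of all 9725 genes were called. They ran from -0.24 for Igfbp2, a binding protein of insulin-like growth factors, to 0.21 for Hamp, which encodes the iron hormone hepcidin. Cyp8b1 of bile acid synthesis was at 0.15.

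Genes that act with the members were equally without calls, where 0 of all 9725 genes were called and 50.8% lay below 0. Of 21 genes of glutamine, ammonia and urea handling, 18 were measured, 7 above 0 and 11 below, with 0 called and a median of -0.05. The arginine transporter Slc7a2 was at -0.33 ± 0.16 (SE), Nags, which makes the activator of the urea cycle, at 0.19 ± 0.13 (SE), and the mitochondrial aminotransferase Got2 at -0.04. Of 15 genes of histidine, serine and ornithine breakdown, 11 were measured, 3 above 0 and 8 below, with 0 called and a median of -0.03. Ftcd, which completes histidine breakdown after Hal, was at -0.03 ± 0.08 (SE), Srr, serine racemase, at -0.23, Gldc of glycine cleavage at 0.15, and Aldh4a1 of proline breakdown at -0.11. Of 21 genes of Wnt signalling and zonation control, 19 were measured, 10 above 0 and 9 below, with 0 called and a median of 0.01. The Wnt receptor Fzd8 was at -0.35 ± 0.15 (SE; limma adjusted p = 0.708), Ctnna1, alpha-catenin, at 0.12, and Hnf4a, a transcription factor of hepatocyte identity, at 0.03. Of 22 relatives of the members, 13 were measured, 4 above 0 and 9 below, with 0 called and a median of -0.05. Among them the 17-beta-hydroxysteroid dehydrogenases Hsd17b14, Hsd17b2 and Hsd17b4 were at -0.28, 0.17 and -0.04, and Uroc1, which follows Hal in histidine breakdown, was at -0.09.

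**Figure D4:**
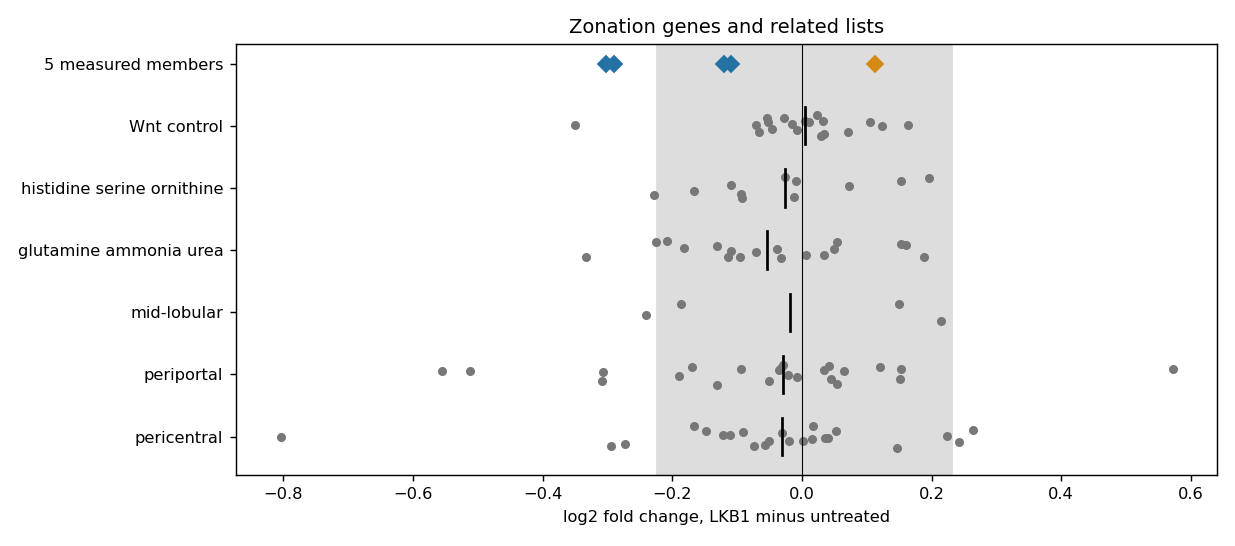
Log2 fold change (x axis, LKB1 minus untreated) of the measured genes of 6 lists around liver zonation (grey points, black bar for the list median) and of the 5 measured members (blue pericentral, orange periportal), over a grey band from the 5th to the 95th percentile of all genes. List medians lie between -0.05 and 0.01, and Slc1a2 at -0.29 and Rhbg at -0.30 lie outside the band.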

How the data were processed

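Liver RNA of 10 mice was measured on Illumina bead arrays, and the deposited table holds, per the file headers, the average signal of each probe (a linear intensity, not normalized) together with its detection p-value. Any background subtraction before deposit is unstated. The authors' processed values, read as log2 from their size, had equal medians in every column and ranks that matched the intensities (Spearman 1), and served as an alternative. Per the submitters' processing notes, the package lumi was used, with no version or step named. 0 per-sample columns were left unmapped, and 0 pairs of arrays were identical.

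Intensities were background-corrected by normexp from the detection p-values with an offset of 16, brought to equal quantiles and log2-transformed by neqc (limma 3.58.1, R 4.3.3). A probe was kept where its detection p was under 0.05 in 4 or more livers. GEO's annotation of the platform gave 1 symbol for 34885 probes, several for 18 and none for 10378. A gene was read from its brightest kept probe. The comparison of LKB1 with untreated livers was a limma fit (lmFit, eBayes) without covariates, two-sided, with Benjamini-Hochberg adjustment over kept probes at 0.05. Each array was taken as 1 mouse, as the design text counts mice. Correlations used 100000 permutations, and the fit and the correlations were tested on simulated data. Members and gene lists were chosen with earlier results of these data known. From each list at most 4 genes are named: the gene of smallest p in each direction and the 2 brightest. The 3 genes most like each member are named, leaving out clone and predicted names. Alternatives covered background, offset, normalization, filter, array weights, array set, replicate number, single arrays left out and the probe rule. The number of arrays limits the precision.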

Additional observations from a re-analysis of the deposited data

How the results depend on the processing

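In the 22 alternatives tried, none of the 5 measured zonation genes passed an adjusted p of 0.05 (limma; the smallest was 0.644), and no list gene did either. Slc1a2 and Rhbg stayed below 0 in all 22, from -0.51 to -0.16 and from -0.42 to -0.19, with an unadjusted p under 0.05 in 4 and 2 of them. Signs turned for Glul within array set B (0.0935), for Oat with the replicate block (0.0572), and for Hal with array medians made equal (-0.10) and with the mean of its probes (-0.0626). With array medians made equal the median log2 fold change of all genes lay at -0.157, against which Hal was at 0.05 and Slc1a2 at -0.35. The number of genes called over the array was 11 with array medians made equal and from 0 to 1 with 1 array left out (1 without LKB1 replicate 2). By Pearson's r, the number of correlated pairs was 5 with array medians made equal, where all values share each array's scale factor. These were not all within a zone, as Oat and Hal had r = 0.756 (permutation adjusted p = 0.0294). Rhbg and Hal were at r = 0.633 (permutation adjusted p = 0.0827), not called by r, but their rho of 0.745 passed (permutation adjusted p = 0.0334). Glul and Slc1a2, called by r, did not pass by rank (permutation adjusted p = 0.162). On this scaling Glul and Oat were at r = 0.27, Slc1a2 and Hal at 0.44 and Glul and Hal at -0.0017. With deviations from array set means, chosen after seeing the data, Glul and Oat were at 0.29, Oat and Hal at -0.13 and Rhbg and Hal at -0.0693. The cause of these changes was not tested. Replicate numbers 1, 2 and 4 occur in both groups, and the deviations of same-numbered mice correlated at 0.15, 0.24 and -0.17, so the numbers were not used for pairing; with the replicate block 0 genes were called (576 at an unadjusted p under 0.05, against 613). Glul, Lect2 and the dimmer Slc1a2 probes lay close to or at background, which limits what these probes can show.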
